A study of Mus musculus with 12 samples.

Results

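Inflammasome and pyroptosis transcripts were followed in Ly6G+ spleen cells of mice at 4 ages. The set held 10 genes, listed by name as 6 sensors (Nlrp3, Nlrp1b, Nlrc4, Aim2, Mefv and Nlrp12), the adaptor Pycard, the caspase genes Casp1 and Casp4, and the pore gene Gsdmd. They were taken from a table of 38887 Ensembl gene identifiers, and all 10 were found in it and passed the filter on low counts. The mice were 2 days, 7 days, 14 days or 6 weeks old, and each age had 3 of the 12 libraries. Every library is labelled as polymorphonuclear myeloid-derived suppressor cells, which are neutrophils able to restrain T cells, and the series asks what governs a suppressive activity that newborn neutrophils hold for a limited time. The labels name no treatment or genotype at any age, and give neither strain, sex nor the number of mice behind a library. Whether each library stands for its own mouse is not told, so the spread among libraries that the tests use may understate that among mice.

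Inflammasomes are protein platforms that form in the cytosol when a sensor meets a microbial product or a disturbance of the cell. The sensor gathers the adaptor ASC, the product of Pycard, which in turn gathers caspase-1, and the active caspase matures interleukin 1 beta and interleukin 18 and cuts gasdermin D. The released end of gasdermin D forms pores in the plasma membrane, through which the cytokines leave and which can end in the lytic death called pyroptosis. Neutrophils carry this machinery and are a source of interleukin 1 beta, and are known to resist lysis more than macrophages do.

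Levels are given as CPM, a gene's counts relative to the normalized size of its library. Each library held between 34495767 and 38795913 counts, and even the rarest member, Nlrp1b, had at least 35 of them in each. At 2 days replicate 2 stood apart from the other libraries of its age (Spearman correlation across genes as low as 0.971), and its normalization factor of 0.828 was the lowest of all. At 14 days replicate 1 had the next lowest factor, 0.918. Calls of members that changed when either was left out are given with and without it. Marker genes of neutrophils were present at every age, with Ly6g at 93.7 ± 18.4 CPM at 2 days, 103 ± 11 CPM at 7 days, 168 ± 18.4 CPM at 14 days and 178 ± 8.52 CPM at 6 weeks (SD, n = 3 each). Several other neutrophil markers had their lowest mean at 7 days, among them Csf3r, the receptor gene of granulocyte colony-stimulating factor, which averaged 2054 ± 1219 CPM at 2 days, 697 ± 119 CPM at 7 days, 3756 ± 1006 CPM at 14 days and 5976 ± 1251 CPM at 6 weeks. Camp, Ltf and Ngp, like Ly6g, had their lowest mean at 2 days, and Mmp8 at 6 weeks. The 11 neutrophil markers summed to between 68485 and 89877 CPM at 2 days and 71810 and 79441.5 CPM at 7 days, which overlapped. Their sums were 86814 to 101058 CPM at 14 days and 82236 to 101585 CPM at 6 weeks. None of the 62 marker genes listed, of neutrophils and of other cells, was at 0 counts over the libraries of an age. The 14 markers of monocytes and macrophages summed to between 499 and 708 CPM at 2 days, 1886 and 1930 CPM at 7 days, 838 and 1300.3 CPM at 14 days, and 3804 and 4069 CPM at 6 weeks. The 11 heat-shock genes of another list summed to between 28784 and 33834 CPM at 7 days, while no library of another age exceeded 1894 CPM. Transcripts of 4 Y-linked genes summed to between 1816 and 4010 counts in each library of 2 and 7 days and to 0 or 1 count in each of 14 days and 6 weeks, so that sex and age cannot be told apart between those ages. Xist, the transcript of the inactive X chromosome, had at least 4814 counts in every library. The libraries of 2 and 7 days thus held transcripts of both sexes, and so of more than 1 mouse each. The mix differed among the 7-day libraries. Replicate 3 had 4010 Y-linked and 7432 Xist counts, against 1816 and 12623 in replicate 1 and 2525 and 16681 in replicate 2. In bulk RNA, fewer cells of a type and less RNA per cell cannot be told apart either.

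All 10 genes differed among the ages in the joint test of edgeR, in which 69.2% of 15494 genes tested did so. Of the 10, 7 had their lowest mean at 7 days, as did 32.7% of the genes tested, while 2 had it at 2 days and 1 at 6 weeks. In 6 of them (Nlrp3, Nlrp1b, Aim2, Nlrp12, Casp4 and Gsdmd) each 7-day library lay below each library of the other ages, a pattern that 16.1% of the genes tested showed. Scaled by library totals alone, 6 members and 12.1% of the genes showed it.

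**Figure D1:**
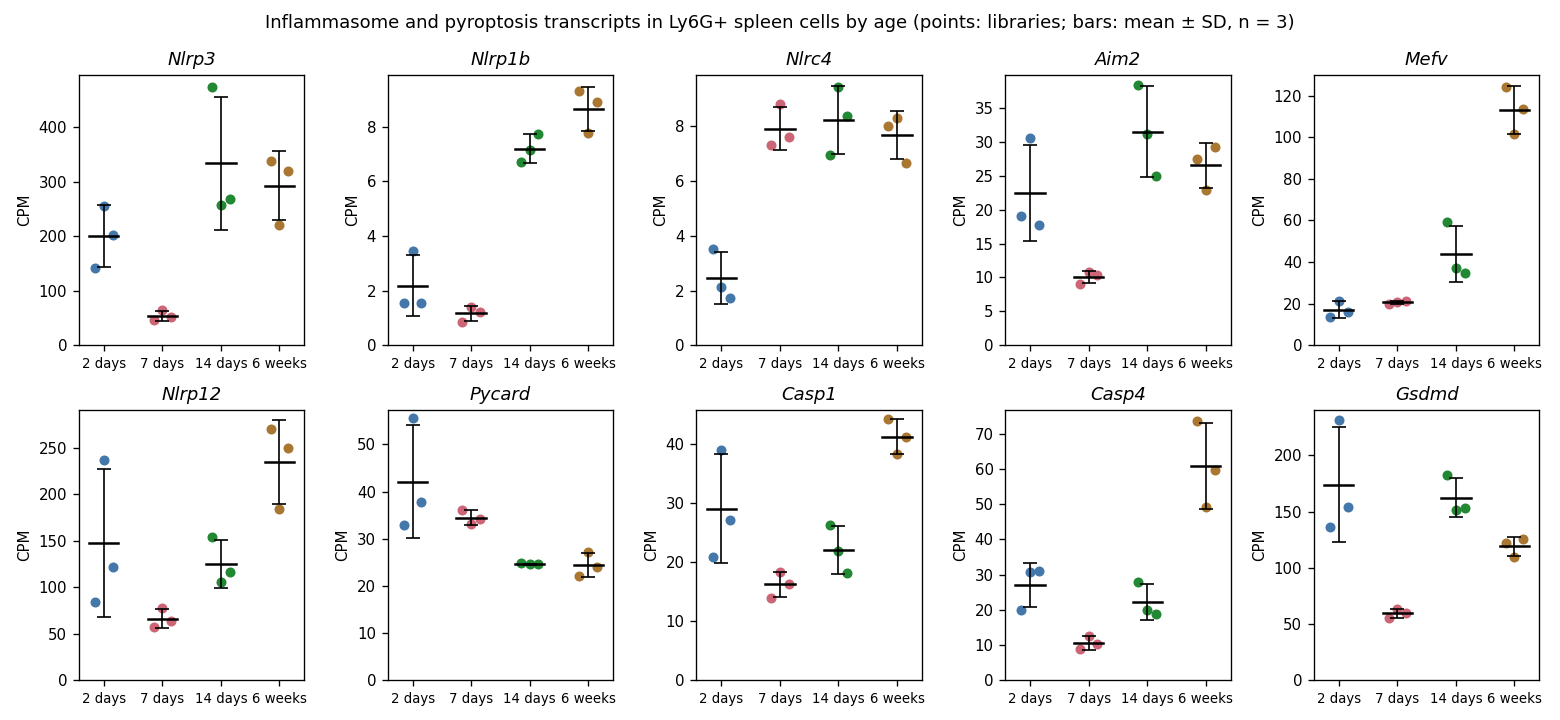
Level of each of the 10 genes in each library, in CPM on a linear axis from 0, by age; points are libraries, and bars are the mean and SD of 3 libraries. Nlrp3, Gsdmd and Casp4 are lowest at 7 days, Mefv is highest at 6 weeks and Nlrc4 is lowest at 2 days. The mean of Pycard is highest at 2 days, where its libraries overlap those of 7 days.

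Of the sensors, Nlrp3 was the most abundant per length of merged exons. It lies on chromosome 11 at 59541568 to 59566956 in GRCm38, the assembly of mm10, on the plus strand. Its product responds to potassium loss and membrane damage, and its transcription is known to be raised by NF-kB signalling before the inflammasome assembles. Nlrp3 stood at 141, 255 and 203 CPM in the 2-day libraries, 46.7, 64.3 and 52.3 CPM at 7 days, 475, 258 and 268 CPM at 14 days, and 339, 221 and 319 CPM at 6 weeks. The 7-day libraries were all low and apart from the rest, those of 14 days lay just above those of 2 days, and 14-day replicate 1 was the highest of all. The level at 7 days was 3.67-fold below that at 2 days (log2 fold change -1.88, SE 0.28, edgeR adjusted p = 0.000181), and the level at 14 days was 6.13-fold above that at 7 days (log2 fold change 2.62, SE 0.29, adjusted p = 2.79e-05). Between 6 weeks and 14 days the libraries overlapped and the difference did not pass the test (log2 fold change -0.19, 95% interval -0.77 to 0.4). The 14-day level against that at 2 days narrowly missed the threshold (log2 fold change 0.74, adjusted p = 0.0629), and passed it without 2-day replicate 2 (0.95) or 14-day replicate 2 (0.92), with DESeq2 (0.73), with library totals (0.80) and without the filter (0.78). Without 14-day replicate 1 it was 0.40. The 6-week level against that at 2 days (log2 fold change 0.55, adjusted p = 0.12) was called without 2-day replicate 2 (0.75) and with library totals (0.56).

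Nlrp1b, a rodent sensor best known for its cleavage by anthrax lethal toxin, was the rarest member per length of merged exons. It lies on chromosome 11 at 71153102 to 71230733. It was measured at 1.56, 3.46 and 1.53 CPM at 2 days, 0.858, 1.4 and 1.23 CPM at 7 days, 6.71, 7.13 and 7.74 CPM at 14 days, and 9.31, 7.76 and 8.91 CPM at 6 weeks. Both older ages lay well above both younger ones with no overlap. The level at 14 days was 6.18-fold that at 7 days (log2 SE 0.3, adjusted p = 3.96e-05) and the level at 6 weeks was 4-fold that at 2 days (log2 fold change 2, SE 0.29, adjusted p = 0.000186). The fall at 7 days against 2 days was small and unstable: the log2 fold change of -0.89 (adjusted p = 0.0281) became -0.39 without 2-day replicate 2, and the call also ended without 7-day replicate 1 (-0.66) or 3 (-0.88), with limma-voom (-0.79) and with only those ages in the fit (-0.90). Nlrp1b has close paralogs, among them Nlrp1a, and the gene varies among mouse strains, so how its reads were divided is uncertain.

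Aim2, on chromosome 1 at 173350879 to 173466040, encodes a sensor of DNA in the cytosol. It overlaps Cadm3 on the opposite strand, and reads of the pair cannot be told apart without strand. Its level was 19, 30.6 and 17.7 CPM at 2 days, 9.07, 10.8 and 10.4 CPM at 7 days, 38.4, 31.1 and 24.9 CPM at 14 days, and 27.5, 22.8 and 29.3 CPM at 6 weeks. The 7-day libraries were all the lowest and those of the other ages overlapped. The 14-day level was 3.12-fold that at 7 days (log2 SE 0.22, adjusted p = 0.000101), and the 7-day level was 2.22-fold below that at 2 days (log2 SE 0.21, adjusted p = 0.000919). The 6-week and 2-day levels, at 26.5 ± 3.34 CPM and 22.4 ± 7.1 CPM, did not differ past the threshold with all libraries, but did without 2-day replicate 2, where the log2 fold change of 0.24 became 0.52. The 14-day level against that at 2 days (0.49, adjusted p = 0.109) was likewise called without 2-day replicate 2 (0.78) and with library totals (0.57).

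Nlrp12, on chromosome 7 at 3218784 to 3249740, encodes a sensor-like protein of myeloid cells that has been described as a brake on NF-kB signalling and, in some infections, as part of an inflammasome. It measured 84.5, 237 and 121 CPM at 2 days, 57.3, 77.4 and 63.7 CPM at 7 days, 154, 105 and 116 CPM at 14 days, and 271, 184 and 249 CPM at 6 weeks. The 2-day libraries were the most uneven, with replicate 2 in the range of those of 6 weeks. The 6-week level was 3.55-fold that at 7 days (log2 SE 0.32, adjusted p = 0.000492), and the 7-day level was 2.23-fold below that at 2 days (log2 fold change -1.16, adjusted p = 0.00866). Without 2-day replicate 2 that fall was -0.62 and still called. The 6-week level against that at 2 days was not called with all libraries (log2 fold change 0.67, adjusted p = 0.101) and was called without 2-day replicate 2 (1.18) or with library totals (0.71). The rise at 14 days against 7 days (log2 fold change 0.92, adjusted p = 0.0281) was not called without 7-day replicate 1 (0.8) or 3 (0.86) or 14-day replicate 1 (0.74).

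Mefv, on chromosome 16 at 3707218 to 3718097, followed another course. It encodes pyrin, a sensor whose human gene is mutated in familial Mediterranean fever. Mefv was at 13.6, 21.5 and 15.9 CPM at 2 days, 20, 20.8 and 21.1 CPM at 7 days, 59.4, 37.3 and 34.7 CPM at 14 days, and 124, 101 and 113 CPM at 6 weeks. Libraries of the 2 youngest ages overlapped, the 14-day libraries lay above both, and those of 6 weeks above all others. The 6-week level was 6.66-fold that at 2 days (log2 fold change 2.74, SE 0.21, adjusted p = 1.5e-06) and 2.58-fold that at 14 days (adjusted p = 0.000834), and the 14-day level was 2.12-fold that at 7 days (adjusted p = 0.00111). The log2 fold change of Mefv at 14 days against 7 days ranged from 0.80 to 1.19 over the 19 alternatives run, and was called under each. The summed markers of monocytes and macrophages, cells in which Mefv is active too, were likewise highest at 6 weeks, at 3804 to 4069 CPM, but were higher at 7 days (1886 to 1930 CPM) than at 14 days (838 to 1300.3 CPM). Their part in the climb of Mefv was not tested.

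Nlrc4, on chromosome 17 at 74425438 to 74459142, was the one member called higher at 7 days than at 2 days. Its product is recruited by NAIP receptors that bind flagellin and parts of bacterial secretion systems. Its level was 3.53, 2.14 and 1.73 CPM at 2 days, 7.31, 8.82 and 7.62 CPM at 7 days, 6.95, 9.42 and 8.36 CPM at 14 days, and 8.03, 8.32 and 6.67 CPM at 6 weeks. The 2-day libraries were the low ones and the other 3 ages overlapped. The level at 7 days was 3.2-fold that at 2 days (log2 fold change 1.68, SE 0.24, adjusted p = 0.000132), the opposite of what Nlrp3 and Aim2 did at that step. From 7 days on no difference was called, with log2 fold changes of 0.06 for 14 days against 7 days (95% interval -0.43 to 0.55) and -0.1 for 6 weeks against 14 days (95% interval -0.59 to 0.39).

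Pycard, the adaptor gene, on chromosome 7 at 127989708 to 127993867, differed least among the ages and was lower at the older ones. It stood at 32.8, 55.7 and 37.8 CPM at 2 days, 36.1, 33.1 and 34.1 CPM at 7 days, 24.8, 24.6 and 24.6 CPM at 14 days, and 22, 27.2 and 24.1 CPM at 6 weeks. Both older ages lay below both younger ones with no overlap. The 6-week level was 1.72-fold below that at 2 days (log2 fold change -0.78, SE 0.17, adjusted p = 0.00248) and the 14-day level 1.71-fold below it (adjusted p = 0.0046). Over the 19 alternatives run these log2 fold changes ranged from -0.91 to -0.55 and from -0.89 to -0.52. Both were called under each. Against 7 days the falls at 14 days (log2 fold change -0.48, adjusted p = 0.0296) and 6 weeks (-0.5, adjusted p = 0.0239) depended on single libraries. The first was not called without 7-day replicate 1 (-0.48) or 14-day replicate 1 (-0.49), and the second not without 6-week replicate 1 (-0.43) or 3 (-0.49).

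The 2 caspase genes lie side by side on chromosome 9, on the same strand and 1562 bases apart. Casp1 spans 5298517 to 5307265 and Casp4 spans 5308828 to 5336783. Casp1 encodes the protease that matures interleukin 1 beta, and Casp4, whose product in mice is known as caspase-11, encodes a receptor for lipopolysaccharide in the cytosol that cuts gasdermin D without a sensor of the set. RefSeq promoter windows of GRCm38.p6, from 250 bases before to 50 after the start of transcription, are shown for both neighbours because the ratio of their transcripts differed between ages, and for Nlrc4 because it alone was called higher at 7 days than at 2 days. They are written from 5′ to 3′ on the strand of the gene, with matches to the Ets type motif GGAAGT, on either strand, in capitals.
Casp1 (chr9:5298267-5298566, plus strand): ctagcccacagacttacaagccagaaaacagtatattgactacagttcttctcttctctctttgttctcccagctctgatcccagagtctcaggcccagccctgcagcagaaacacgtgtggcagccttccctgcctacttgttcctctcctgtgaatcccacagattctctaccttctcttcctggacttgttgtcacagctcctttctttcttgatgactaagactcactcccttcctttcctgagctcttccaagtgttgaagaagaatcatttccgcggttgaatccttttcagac
Casp4 (chr9:5308599-5308898, plus strand): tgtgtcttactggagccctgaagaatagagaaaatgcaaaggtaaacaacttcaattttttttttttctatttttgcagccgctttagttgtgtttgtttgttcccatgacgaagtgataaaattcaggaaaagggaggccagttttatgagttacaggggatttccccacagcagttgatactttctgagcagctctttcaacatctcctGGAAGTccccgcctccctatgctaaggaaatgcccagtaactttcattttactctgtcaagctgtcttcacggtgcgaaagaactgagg
Nlrc4 (chr17:74459059-74459358, minus strand): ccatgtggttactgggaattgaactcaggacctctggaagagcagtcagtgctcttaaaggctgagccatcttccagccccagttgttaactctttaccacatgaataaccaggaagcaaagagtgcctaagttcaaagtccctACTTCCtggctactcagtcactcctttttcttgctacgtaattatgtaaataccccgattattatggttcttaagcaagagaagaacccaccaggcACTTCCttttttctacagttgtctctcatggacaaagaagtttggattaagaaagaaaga
The Casp4 window shown held GGAAGT once, from position -39 of the start site. Another Casp4 window, chr9:5308610-5308909, held the same match from position -50 of its own start site. The Nlrc4 window held GGAAGT at 2 places on the reverse strand, as ACTTCC, from positions -106 and -10. The Casp1 window held no match to these letters. Windows were found for 9 of the 10 genes, and at least 1 window of 6 of them (Aim2, Nlrp12, Pycard, Casp4, Nlrp1b and Nlrc4) held GGAAGT, against 26.5% of 27025 genes with a window. Genes with more windows had more places to match, and of all 32851 windows 23.8% held it. The Stat type motif TTCNNNGAA was found for 1 of the 9, Nlrp12, against 9.55% of genes, and the interferon-stimulated response element type, GAAA repeated after any 2 bases, for 0 of the 9, against 3.99% of genes. Both strands were searched, and in the Nlrp12 window the matches of different motifs did not overlap. A match describes letters and not a bound site.

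Casp1 was at 20.9, 39 and 27.1 CPM at 2 days, 14, 18.3 and 16.3 CPM at 7 days, 26.3, 21.8 and 18.1 CPM at 14 days, and 44.3, 38.3 and 41.1 CPM at 6 weeks. The 6-week libraries lay above those of 7 and 14 days, while 2-day replicate 2 reached into their range. The level at 7 days was 1.79-fold below that at 2 days (log2 fold change -0.84, SE 0.21, adjusted p = 0.00545; without 2-day replicate 2, -0.55 and still called), and the level at 6 weeks was 1.87-fold that at 14 days (log2 fold change 0.9, SE 0.21, adjusted p = 0.0101). Against 2 days the 6-week level missed the threshold (log2 fold change 0.51, adjusted p = 0.0657). It passed without 2-day replicate 2 (0.77) or 14-day replicate 3 (0.53), with DESeq2 (0.51), limma-voom (0.57), scaling by totals (0.52) and no filter on low counts (0.55). The 14-day level against that at 2 days (-0.39, adjusted p = 0.188) was called without 2-day replicate 1 (-0.55).

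Casp4 changed more. It measured 19.9, 30.7 and 30.9 CPM at 2 days, 8.73, 12.6 and 10.3 CPM at 7 days, 27.9, 19.8 and 18.7 CPM at 14 days, and 73.6, 49.2 and 59.8 CPM at 6 weeks. The 6-week libraries were all the highest, the 7-day libraries all the lowest, and those of 2 and 14 days overlapped in between. The level at 6 weeks was 5.77-fold that at 7 days (log2 fold change 2.53, SE 0.23, adjusted p = 5.01e-06), 2.75-fold that at 14 days (adjusted p = 0.000923) and 2.24-fold that at 2 days (adjusted p = 0.00119). The level at 7 days was 2.57-fold below that at 2 days (log2 SE 0.22, adjusted p = 0.000378). Each of these calls of Casp4 was made under all 19 alternatives run.

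Gsdmd, the gene of the pore protein gasdermin D, on chromosome 15 at 75862327 to 75867408, was first or second of the members per length of merged exons at every age. With all libraries, Gsdmd and Pycard were the members whose means were highest at 2 days. For Pycard the libraries of 2 and 7 days overlapped. For Gsdmd this rested on 2-day replicate 2. Its log2 fold change at 14 days against 2 days was -0.1 with all libraries and 0.16 without that one. Neither was called. The level of Gsdmd was 136, 232 and 154 CPM at 2 days, 55.5, 63.2 and 59.7 CPM at 7 days, 182, 152 and 154 CPM at 14 days, and 122, 109.5 and 126 CPM at 6 weeks. The 7-day libraries were apart below all others, and those of 6 weeks lay below those of 2 and 14 days. The level at 7 days was 2.93-fold below that at 2 days (log2 fold change -1.55, SE 0.18, adjusted p = 2.6e-05), and the level at 14 days 2.73-fold above that at 7 days (log2 fold change 1.45, SE 0.17, adjusted p = 5.55e-05). At 6 weeks it was 1.46-fold below the level at 2 days (log2 fold change -0.55, adjusted p = 0.0229), a call that ended without 6-week replicate 1 (-0.57) or 2 (-0.49) or with only those ages in the fit (-0.53). Without 2-day replicate 2 it was -0.30 and still called. The fall at 6 weeks against 14 days was not called with all libraries (log2 fold change -0.45, adjusted p = 0.0881) but was without 2-day replicate 1 (-0.45) or 2 (-0.46) or with library totals alone (-0.52) or only those ages (-0.45).

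The first step, of 7 days against 2 days, was downward for most of the set. Of the 10 members 7 were lower (Nlrp3, Nlrp1b, Aim2, Nlrp12, Casp1, Casp4 and Gsdmd), where 25.8% of all genes tested were lower, and 1 was higher (Nlrc4), where 22.9% were higher, or 48.7% in either direction. The median log2 fold change of the members was -1.02, against -0.01 over all genes. Mefv and Pycard did not pass the test, with intervals of -0.16 to 0.73 and -0.64 to 0.07. The heat-shock sums given above moved at the same step, with 11 of 11 genes higher at 7 days, and so did the markers of monocytes and macrophages, with 12 of 14 higher and 0 lower. Of the 11 neutrophil markers 5 were lower, Csf3r among them (log2 fold change -1.56, edgeR adjusted p = 0.00336), and 2 were higher. Markers of mast cells and basophils summed to between 72.9 and 84.8 CPM at 7 days, against 1499.9 and 2807 CPM at 2 days. Erythroid markers summed to between 1449.7 and 2581 CPM at 7 days, against 197 and 303 CPM at 2 days, and those of B cells to between 522 and 590 CPM, against 248 and 326 CPM. The part of these lists in the members' falls was not tested. Scaled by library totals alone, where the median of all genes at this step moved to 0.14, the same count of 7 members was lower and Mefv was called higher as well (log2 fold change 0.46).

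The second step, of 14 days against 7 days, ran the other way. Of the members 7 were higher (Nlrp3, Nlrp1b, Aim2, Mefv, Nlrp12, Casp4 and Gsdmd), where 24% of all genes were higher, and Pycard was lower, where 21.9% were lower, or 45.9% in either direction. The median was 1.08, against 0.02 over all genes. Nlrc4 and Casp1 did not pass, and Casp1 (log2 fold change 0.45, adjusted p = 0.0966) passed without 2-day replicate 2 (0.43) or with only those ages in the fit (0.42). All 11 heat-shock genes were lower at 14 days, and of the markers of monocytes and macrophages 9 were lower and 3 higher. Of the 11 neutrophil markers 2 were higher and 0 lower, all 5 erythroid markers were lower, and so were 5 of 6 markers each of B cells and of mast cells and basophils. Their part was not tested. The 7-day libraries enter this step and the one before it, so the 2 are not independent.

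The last step, of 6 weeks against 14 days, touched pyrin and the caspases. Mefv, Casp1 and Casp4 were higher and 0 members were lower, where 9.26% and 9.68% of all genes were higher and lower, or 18.9% in either direction. The median of the members was 0.13, against 0 over all genes. Nlrp12 was higher in all 6-week libraries than in all 14-day libraries but missed the threshold (log2 fold change 0.91, adjusted p = 0.059), which it passed without 2-day replicate 1 (0.9) or 2 (0.9), with DESeq2 (0.92), with library totals (0.84), without the filter (0.91) and with only those ages (0.9). The count of members called was 5 without either of these libraries. Of the markers of monocytes and macrophages 11 were higher and 1 lower at this step, and their part was not tested.

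Set end to end, 6 weeks against 2 days, Nlrp1b, Nlrc4, Mefv and Casp4 were higher, where 19.7% of all genes were higher. Pycard and Gsdmd were lower, where 20.7% of genes were lower, or 40.4% in either direction. The members' median was 0.61, against -0.04 over all genes. This count rested on 2-day replicate 2: without it all 10 members were called, 8 of them higher, while the share of all genes called was 52%. In the same comparison 13 of 14 markers of monocytes and macrophages were higher, with sums of 3804 to 4069 CPM at 6 weeks, against 499 to 708 CPM at 2 days. All 6 markers of mast cells and basophils were lower, with sums of 18.1 to 33 CPM at 6 weeks, against 1499.9 to 2807 CPM at 2 days, and the part of either list was not tested. Replicate 2 of 2 days had the highest level of its age in 8 of the 10 genes, also by library totals alone. At 6 weeks against 7 days 8 members were higher and Pycard was lower, where 26.6% and 24.5% of all genes were higher and lower, or 51% in either direction. Scaling by totals moved the median of all genes in this comparison to -0.16, with 40.7% of called genes higher in place of 52.1%, and left 8 members called higher and 1 lower. At 14 days against 2 days Nlrp1b, Nlrc4 and Mefv were higher and Pycard lower, where 12.8% and 12.3% of all genes were higher and lower, or 25.1% in either direction.

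**Figure D2:**
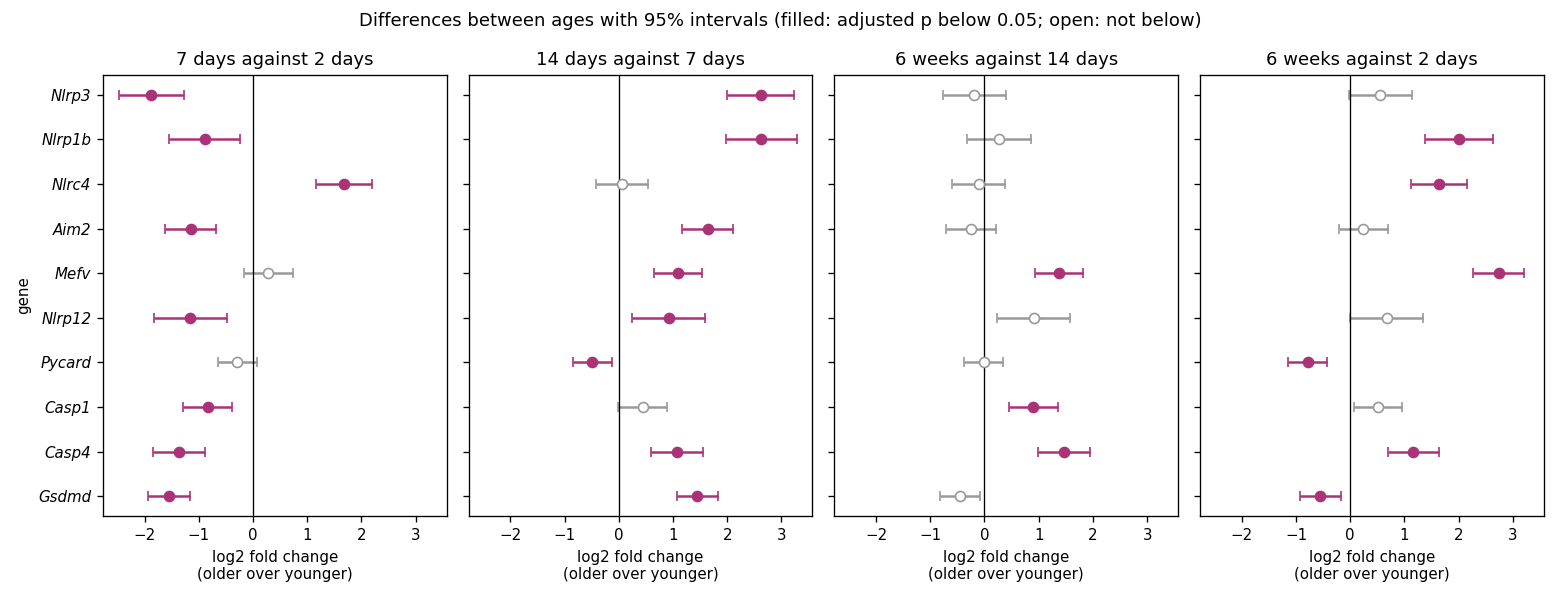
Log2 fold change of each gene, older over younger age, with 95% intervals from edgeR's quasi-likelihood fit, in 4 comparisons; filled points passed an adjusted p of 0.05. In the panel of 7 days against 2 days 7 genes lie left of 0 and are filled, and in that of 14 days against 7 days 7 filled points lie right of it.

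Per length, the order of the transcripts changed with age. Length here is that of all annotated exons merged, such as 3800 bases for Pycard, 3710 for Casp4 and 1497 for Casp1. Transcripts can be shorter than that, so places between genes depend on the length used. Changes of 1 gene with age do not. Dividing CPM by the kilobases of merged exons, Gsdmd led at 2 days with 73.2 ± 21.4 CPM per kilobase, followed by Nlrp3 with 49.3 ± 14, and their libraries overlapped. At 7 days Gsdmd, at 25 ± 1.63 CPM per kilobase, stood apart from Nlrp3, at 13.4 ± 2.21, which overlapped with Casp1 at 10.8 ± 1.45. At 14 days Nlrp3 led with 82.3 ± 30.1 CPM per kilobase, overlapping with Gsdmd at 68.4 ± 7.19. At 6 weeks Nlrp3 was at 72.3 ± 15.5 CPM per kilobase, Gsdmd at 50.1 ± 3.55 and Mefv at 34.8 ± 3.49, and these 3 were apart from each other, while Mefv overlapped with Nlrp12 at 31.1 ± 6.01. Mefv had stood in place 8 of 10 at 2 days, with 5.22 ± 1.26 CPM per kilobase. Nlrp1b was last at all 4 ages, with 1.37 ± 0.127 CPM per kilobase at 6 weeks and 0.346 ± 0.175 at 2 days (SD, n = 3 for each value here). Nlrc4 was next to last.

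Ratios within a library do not depend on how libraries are scaled. They do depend on the merged exon length given to each gene, which is the same at every age. Nlrp3 over Pycard, per length, was 4.04, 4.29 and 5.03 at 2 days, 1.21, 1.82 and 1.44 at 7 days, 18, 9.85 and 10.2 at 14 days, and 14.4, 7.62 and 12.4 at 6 weeks. The ratio was lowest at 7 days, and the 14-day and 6-week libraries overlapped. It was over 1 in every library with merged exons of 4057 bases for Nlrp3 and 3800 bases for Pycard. A shorter length for Pycard would lower it at all ages alike, so its place above 1 depends on the length used. Mefv over Nlrp3 was 0.12, 0.105 and 0.0975 at 2 days, 0.535, 0.403 and 0.503 at 7 days, 0.156, 0.18 and 0.162 at 14 days, and 0.457, 0.572 and 0.443 at 6 weeks, so that 7 days and 6 weeks overlapped and lay above the other ages.

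Casp4 over Casp1 was 0.385, 0.317 and 0.46 at 2 days, 0.252, 0.277 and 0.256 at 7 days, 0.429, 0.367 and 0.418 at 14 days, and 0.671, 0.519 and 0.587 at 6 weeks. The 6-week libraries lay above all others and the 7-day libraries below all others. Gsdmd over Casp1 was 4.1, 3.74 and 3.59 at 2 days, 2.5, 2.18 and 2.3 at 7 days, 4.37, 4.38 and 5.35 at 14 days, and 1.73, 1.8 and 1.92 at 6 weeks. No 2 ages overlapped in this ratio, which was lowest at 6 weeks. These ratios are given as a description, since 3 libraries per age were not tested on them.

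**Figure D3:**
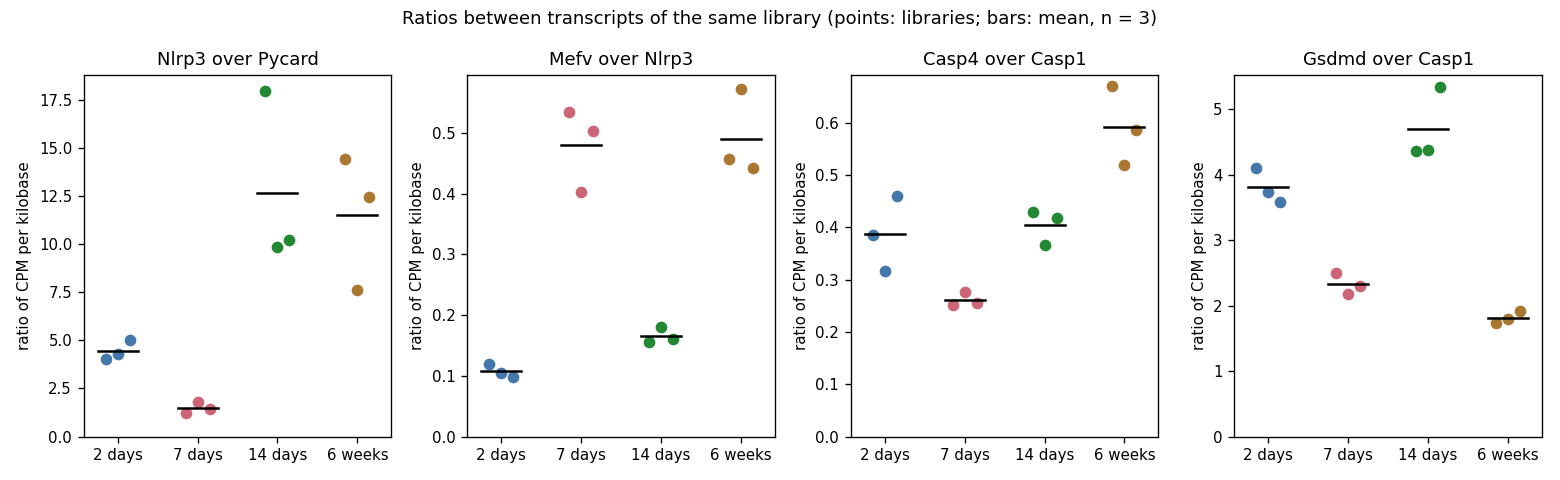
Ratio of 2 transcripts in the same library, each in CPM per kilobase, on linear axes from 0 by age; points are libraries and bars the mean of 3. Nlrp3 over Pycard is lowest at 7 days, Casp4 over Casp1 is highest at 6 weeks, and Gsdmd over Casp1 is lowest there.

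Of 31 further genes of the pathway 30 were matched to the table and tested, and 23 of them differed among the ages in the joint test, where 69.2% of all genes did. At 7 days against 2 days 9 were higher and 8 lower, beside 22.9% and 25.8% of all genes. At 14 days against 7 days 10 were higher and 3 lower, beside 24% and 21.9%. At 6 weeks against 14 days 8 were higher and 5 lower, beside 9.26% and 9.68%, and at 6 weeks against 2 days 14 were higher and 5 lower, beside 19.7% and 20.7%. Their median log2 fold change was -0.06, 0.13, 0.08 and 0.64 in these comparisons, in that order.

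Il1b, the main substrate of caspase-1 in this pathway, was lowest at 7 days. It stood at 260.0, 577 and 379 CPM at 2 days, 64.4, 92.3 and 72.1 CPM at 7 days, 2733, 1502 and 1599 CPM at 14 days, and 1841, 1169 and 1872 CPM at 6 weeks. The 7-day libraries were apart below and both older ages apart above the 2-day libraries. The 14-day level exceeded that at 7 days by 4.67 on the log2 scale (SE 0.36, adjusted p = 2.85e-06). Il18, the other cytokine that caspase-1 matures, went the opposite way at both early steps. Its level was 4.6, 5.24 and 6.14 CPM at 2 days, 13.8, 14.3 and 15.9 CPM at 7 days, 2.69, 7.46 and 7.66 CPM at 14 days, and 20.6, 17.7 and 19.4 CPM at 6 weeks. It was higher at 7 days than at 2 days (log2 fold change 1.46, SE 0.29, adjusted p = 0.00145) and lower at 14 days than at 7 days (-1.3, SE 0.29, adjusted p = 0.00319).

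Among further death effectors, Ninj1, which ruptures the plasma membrane at the end of lytic death, was at 50.6, 87.8 and 65.3 CPM at 2 days, 23.4, 22.6 and 19.9 CPM at 7 days, 142, 89.9 and 103 CPM at 14 days, and 178, 88.7 and 159 CPM at 6 weeks. The 7-day libraries were the lowest and the 14-day level was higher than theirs by 2.34 on the log2 scale (SE 0.27, adjusted p = 4.43e-05). Casp8, an initiator of apoptosis that can also cut gasdermin D, measured 30.2, 22.9 and 27.5 CPM at 2 days, 33, 35.1 and 33.2 CPM at 7 days, 33.1, 39.6 and 36.6 CPM at 14 days, and 37.5, 40 and 38.1 CPM at 6 weeks. It was lowest at 2 days and had no dip, with a log2 fold change of 0.52 at 6 weeks against 2 days (SE 0.11, adjusted p = 0.0032).

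Of the inhibitors, Il1r2, the decoy receptor for interleukin 1, was at 571, 731 and 829.5 CPM at 2 days, 53.5, 80.8 and 62.1 CPM at 7 days, 516, 341 and 337 CPM at 14 days, and 245, 172 and 184 CPM at 6 weeks. No 2 ages overlapped. Its level at 7 days was below that at 2 days by a log2 fold change of -3.44 (SE 0.24, adjusted p = 1.06e-06). Trim30a, described in mice as a restraint on Nlrp3, was at 109, 298 and 169 CPM at 2 days, 54.6, 76.6 and 59.4 CPM at 7 days, 199, 149.7 and 146 CPM at 14 days, and 412, 315 and 362 CPM at 6 weeks. It was lowest at 7 days (log2 fold change against 2 days -1.6, SE 0.29, adjusted p = 0.000858) and highest at 6 weeks.

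The interferon-induced GTPase genes Gbp2 and Irgb10, whose products attack membranes of bacteria in the cytosol and so expose ligands of Aim2 and caspase-11, were highest at 6 weeks. Gbp2 was at 6.18, 19 and 9.12 CPM at 2 days, 9.86, 12.7 and 10.5 CPM at 7 days, 25.1, 21.5 and 19.2 CPM at 14 days, and 106, 104 and 122 CPM at 6 weeks. Irgb10 was at 1.46, 1.55 and 1.53 CPM at 2 days, 4.22, 4.42 and 3.62 CPM at 7 days, 2.07, 3.43 and 3.53 CPM at 14 days, and 12.6, 13.8 and 17.6 CPM at 6 weeks. Both were apart at 6 weeks from all other ages, with log2 fold changes against 14 days of 2.33 for Gbp2 (SE 0.31, adjusted p = 0.000374) and 2.28 for Irgb10 (SE 0.21, adjusted p = 3.67e-05). Reads of such families are shared between near-identical copies, and their division is uncertain.

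Of the NAIP receptors that act through Nlrc4, 2 took another course. Naip5, which in mice binds flagellin, was at 60.8, 83.9 and 61.2 CPM at 2 days, 35.5, 41.6 and 39.6 CPM at 7 days, 70.1, 81.6 and 69.4 CPM at 14 days, and 41.5, 46.6 and 39 CPM at 6 weeks. Naip6, its close paralog with the same ligand, was at 62.7, 76.2 and 65.3 CPM at 2 days, 25.6, 37.8 and 32.1 CPM at 7 days, 58.9, 56.3 and 52.2 CPM at 14 days, and 22.2, 28.1 and 23.1 CPM at 6 weeks. At 7 days against 2 days, where Nlrc4 was higher, Naip5 was lower by a log2 fold change of -0.82 (SE 0.14, adjusted p = 0.000475) and Naip6 by -1.1 (SE 0.15, adjusted p = 8.9e-05). The 4 Naip genes are near-identical in parts, so their single values are uncertain.

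**Figure D4:**
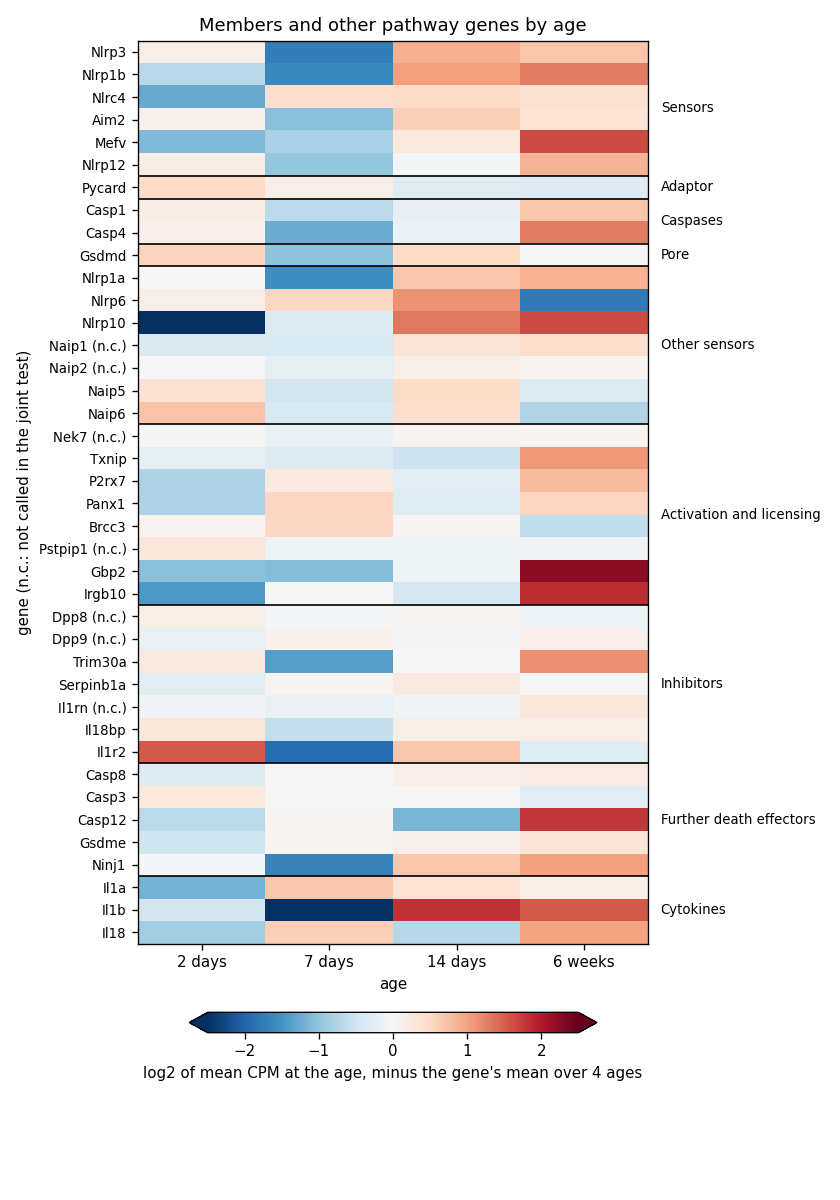
Mean level of the 10 members and 30 further pathway genes at each age, as log2 of the mean CPM minus the mean of the 4 ages for that gene; rows are grouped by role, and n.c. marks genes not called in the joint test. Blue cells at 7 days mark Nlrp3, Nlrp1b, Casp4, Ninj1, Il1r2 and Il1b, while Il18 is red there; colours end at the limits of the scale.

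The genes most like the 3 members with the widest range were found by the root mean square difference of centred log2 CPM over the 12 libraries, among 5881 genes averaging at least 20 CPM. Nearest to Nlrp1b were Alcam (0.24), Krt80 (0.25) and Tspan2 (0.28). Nearest to Mefv were Slc28a2 (0.21), Neurl3 (0.32) and Csf1r (0.36), the receptor gene of macrophage colony-stimulating factor and a marker of monocytes and macrophages. Csf1r averaged 218 ± 103 CPM at 2 days, 353 ± 29.4 CPM at 7 days, 468 ± 15.9 CPM at 14 days and 1176 ± 66.5 CPM at 6 weeks (SD, n = 3 each). Most of its list did not share this course. Of the 14 markers of monocytes and macrophages 9 were lower and 3 higher at 14 days against 7 days. Nearest to Nlrp3 were Fxyd5 (0.25), Ninj1 (0.25) and Gpcpd1 (0.26). Fxyd5 averaged 743 CPM at 2 days, 175 CPM at 7 days, 799.9 CPM at 14 days and 1031 CPM at 6 weeks, lowest at 7 days as Nlrp3 was.

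**Figure D5:**
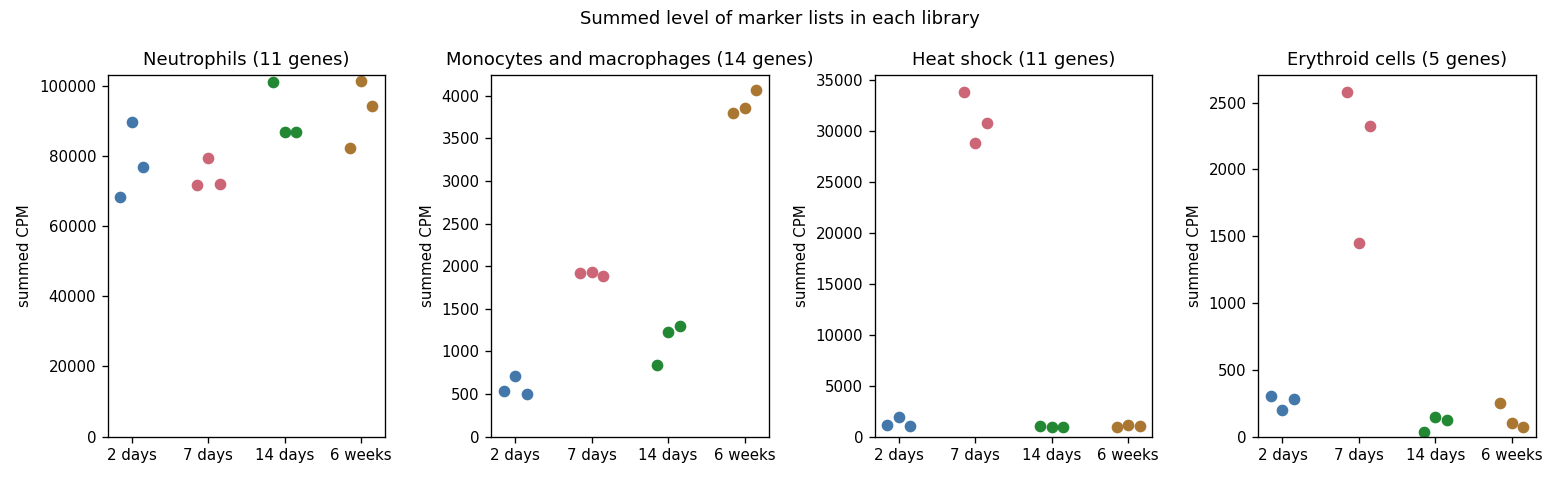
Summed CPM of 4 gene lists in each library, on linear axes from 0 by age; each point is a library. The heat-shock sum stands at 28784 to 33834 CPM at 7 days, and the sum of monocyte and macrophage markers is highest at 6 weeks.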

How the data were processed

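Whole-number counts per gene for 12 libraries of polyadenylated RNA were deposited by the authors in 1 table. Build mm10 and the tools DESeq2 and RSEM 1.2.3 are named in the submitters' processing notes, without a word on what each did. RSEM estimates counts, so these may be rounded estimates. Whether strand was kept is not given in the sources used here, and Aim2 (Cadm3), Pycard and Nlrp12 (6 microRNA genes) overlap genes of the opposite strand. Nlrc4 and Nlrp12 each overlap 1 gene of their own strand. Of 38887 identifiers 37570 received a symbol and position from GENCODE M21 (GRCm38).

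Genes passing filterByExpr (minimum count 10) numbered 15494. Counts were scaled by trimmed mean of M-values and tested with edgeR 4.0.16 (quasi-likelihood, R 4.3.3) in 1 model of all libraries with age as the only term, adjusted by Benjamini-Hochberg over all genes, threshold 0.05. SE is the absolute log2 fold change over the root of F. Intervals on log2 fold changes cover 95%. The procedure was tested on simulated counts. Alternatives were other scalings, no filter, DESeq2 1.42.0, limma-voom (limma 3.58.1), a replicate block, the compared ages alone and each library left out. The members, lists, motifs and naming rules were chosen with earlier results of these data known. Further pathway genes were named as the 2 smallest joint p per role. Irgb10 is annotated as Gm12250, and Gbp5 was not analysed here. Within ages, counts of libraries differed by more than sampling noise (chi-square per degree of freedom from 8.85).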

Additional observations from a re-analysis of the deposited data

How the results depend on the processing

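Of 60 differences of a member between 2 ages 38 were called, 33 of them under every alternative and 5 not under at least 1 of them, and none of the 38 changed sign. Of the 22 not called, 11 were called under at least 1 alternative. Some values that were not called changed sign. Pycard at 6 weeks against 14 days was 0.0054 with median-of-ratios factors and 0.0055 with DESeq2, and ran from -0.096 to 0.058 when a library was left out. Nlrc4 at 14 days against 7 days was -0.022 with library totals and ran from -0.079 to 0.17 when a library was left out. Over the libraries left out, Nlrc4 ran from -0.13 to 0.047 at 6 weeks against 7 days, Nlrp3 from -0.35 to 0.16 at 6 weeks against 14 days, and Nlrp12 from -0.48 to 0.28 and Gsdmd from -0.21 to 0.16 at 14 days against 2 days. The cause was not tested.

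At 6 weeks against 14 days 5 members in place of 3 were called with library totals and with only those ages in the fit, and leaving out a library gave 3 to 5 members, 8 to 13 other pathway genes (8 without 14-day replicate 2) and 1700 to 4673 genes in all, lowest without 6-week replicates 1 (1744) and 3 (1700) and highest without 2-day replicate 2. At 6 weeks against 2 days leaving out a library gave 5 to 10 members and 4736 to 8053 genes in all. At 14 days against 2 days the fit of those ages alone called 2025 genes in place of 3882 and 2 other pathway genes in place of 8, with 6 libraries to estimate the spread.

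Same-numbered libraries of different ages deviated together at correlations of -0.253 to 0.202, with 2 of 18 over 0.1. Differently numbered ones ran from -0.183 to 0.226, with 6 of 36 over 0.1. The best partner had the same number in 8 of 36 cases. Whether a number marks a shared animal, litter or day is not stated, and these correlations cannot settle it. The replicate block left 6, 9, 3, 8, 8 and 4 members called in the comparisons of 6 weeks with 2, 7 and 14 days, 7 with 2 days, 14 with 7 days and 14 with 2 days, as without it.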
